A study of Homo sapiens with 20 samples.

Results

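The S100 genes encode a family of small proteins, most of which bind calcium. Transcripts of 10 of these genes (S100A4, S100A6, S100A7, S100A8, S100A9, S100A10, S100A11, S100A13, S100A14 and S100P) were followed in SUM44 cells given estradiol. SUM44 is an established human breast cancer line from an invasive lobular carcinoma and stands here for a single tumour. The genes were taken by name: a probe set was kept where its only annotated symbol was 1 of the 10, and the brightest probe set on average led for its gene. This gave 12 probe sets for 10 of 11963 measured genes. S100A8 and S100A13 had a second probe set.

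The 5 groups held 4 arrays each. Cells were given 1 nM estradiol (E2) for 3 h or 24 h, were given 0.01% ethanol vehicle for the same times, or were harvested at 0 h. All groups, the 0 h group included, had first been deprived of hormone for 3 days in charcoal-stripped serum, which the series text gives as 2% and the sample text as 10%. The arrays titled E2 at 24 h carry the word baseline in their treatment field. The title and the description of those arrays give E2, so the title was followed. Replicates are called biological quadruplicates in the series text.

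Most S100 proteins, though not all, bind calcium through paired EF-hand loops, and most act as dimers. Inside the cell they attach to partners such as annexins, myosin and actin-linking proteins, many of them when calcium rises. Several are also released and act on receptors such as RAGE (gene AGER) and TLR4. S100A7 (psoriasin) and the S100A8 and S100A9 pair (calprotectin) are antimicrobial and inflammatory proteins, abundant in inflamed skin and, for calprotectin, in neutrophils and monocytes. S100A7 is also known from breast tumours.

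Arrays of the same group correlated at 0.998 to 0.999 and arrays of different groups at 0.988 to 0.998, with 0 identical pairs. GREB1, a known estrogen target, rose by 2.41 ± 0.07 on the log2 scale at 24 h. All 7 measured markers of luminal epithelium lay above the dim level, a log2 value of 6.11 below which the lowest 25% of genes lie. With E2 at 24 h all 7 were called, 3 higher and 4 lower, and at 3 h 2 were higher and 3 lower, among them GATA3 at -2.07 ± 0.04 and FOXA1 at -1.30 ± 0.06, both luminal transcription factors. The log2 summed level of the 7 ran from 15.86 to 15.90 with E2 and from 16.08 to 16.09 with vehicle at 3 h. At 24 h this sum ran from 16.08 to 16.11 with E2 and from 16.02 to 16.07 with vehicle. The groups were thus apart at both times, in opposite directions. Means below the dim level were found for 4 of 4 measured basal markers, 4 of 6 stromal markers and 4 of 7 markers of myeloid and other immune cells. With E2 at 24 h 2 of the 4 basal markers rose, and of the 6 stromal markers 2 rose and 1 fell. The stromal log2 sum ran from 9.25 to 9.38 with E2 and from 9.14 to 9.22 with vehicle at 24 h, without overlap. Over all genes 31.1% were called with E2 at 3 h, 13.5% higher and 17.6% lower. At 24 h 45.7% were called, 21.5% higher and 24.2% lower. As a measure of RNA quality, the control probe sets at the end of GAPDH minus those at its beginning ran on the log2 scale from -0.16 to -0.13 with E2 and from -0.14 to -0.07 with vehicle at 24 h. At 3 h it ran from -0.15 to -0.13 with E2 and from -0.12 to -0.10 with vehicle. The same measure for ACTB ran from 0.343 to 0.419 with E2 and from 0.291 to 0.339 with vehicle at 3 h, without overlap and opposite in direction to GAPDH. At 24 h ACTB ran from 0.37 to 0.40 with E2 and from 0.36 to 0.44 with vehicle, against 0.46 to 0.48 at 0 h, so vehicle at 24 h and 0 h did not overlap. The part of marker levels and RNA quality in the results was not tested.

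Of the 10 genes, 9 lie on chromosome 1 (GRCh38.p14) within 1651.4 kb. This stretch runs from the lower coordinate of S100A10, 151982915, to the upper coordinate of S100A13, 153634361. S100P lies on chromosome 4 at 6693878 to 6697170. S100A9 (153357854 to 153361023), S100A8 (153390032 to 153422583) and S100A7 (153457744 to 153460651) follow each other on chromosome 1, with S100A12 between S100A9 and S100A8. S100A6, S100A4, S100A14 and S100A13 come after S100A7. The 250 bases before the annotated start of S100A7, S100A8 and S100A9 are shown because the first 2 genes rose with E2 and the third, the binding partner of S100A8, was not called. Capitals mark 2 motifs found by script on both strands, GGTCA, the repeat unit of the estrogen response element (TGACC on the opposite strand), and the TATA box TATAAA. Sequences are from RefSeq (GRCh38.p14), 5′ to 3′ on the strand of the gene. They are chr1:153460652-153460901 on the minus strand for S100A7, chr1:153391074-153391323 on the minus strand for S100A8, the window of the table's 3 for this gene with TATAAA nearest its start, and chr1:153357604-153357853 on the plus strand for S100A9.
S100A7: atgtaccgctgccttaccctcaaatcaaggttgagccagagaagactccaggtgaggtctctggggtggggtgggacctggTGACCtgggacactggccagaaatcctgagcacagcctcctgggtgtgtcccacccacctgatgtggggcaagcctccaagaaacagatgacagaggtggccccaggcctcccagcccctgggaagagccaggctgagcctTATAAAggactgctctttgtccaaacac
S100A8: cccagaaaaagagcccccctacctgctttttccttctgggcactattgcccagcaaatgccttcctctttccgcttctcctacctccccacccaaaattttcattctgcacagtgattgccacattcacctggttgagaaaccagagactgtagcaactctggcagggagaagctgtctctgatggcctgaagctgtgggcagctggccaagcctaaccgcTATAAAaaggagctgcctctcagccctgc
S100A9: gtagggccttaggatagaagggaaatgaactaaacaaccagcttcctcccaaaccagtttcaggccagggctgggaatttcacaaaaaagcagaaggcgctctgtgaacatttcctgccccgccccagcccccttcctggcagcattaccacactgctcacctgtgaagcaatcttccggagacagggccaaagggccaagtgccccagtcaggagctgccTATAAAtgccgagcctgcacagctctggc

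The S100A7 window holds GGTCA on the opposite strand at 169 to 165 bases before the start, and TATAAA at 28 to 23 bases before it. In the S100A8 and S100A9 windows TATAAA lies 29 to 24 bases before the start and no GGTCA was found. Of the S100A8 windows not shown, the one farther upstream holds GGTCA on the opposite strand at 225 to 221 bases before its start, and the other holds it on the strand of the gene at 13 to 9 bases before its start. Over the 10 genes, which have 14 windows, GGTCA was found in 7 windows of 5 genes and TATAAA in 7 windows of 6 genes. Of all 35116 windows of this length in the table, 32.6% hold GGTCA and 10.7% hold TATAAA. The full palindromic element GGTCANNNTGACC, which contains GGTCA on both strands, was in 0 of the 14 windows and in 0.0399% of all. The AP-1 motif TGANTCA was in 0 of the 14 and in 6.57% of all, and the C/EBP motif TTGCNNAA was in 1, that of S100A11, and in 9.05% of all. These matches describe the letters of the windows and no binding was measured.

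The S100A7 and S100A8 transcripts were higher with E2 than with vehicle at both times, and more so at 24 h. Their values per array are drawn in the plot of S100A7, S100A8, S100A9 and S100P levels. S100A7 stood at 8.68, 8.80, 8.83 and 8.97 on the log2 scale in the E2 arrays at 3 h, against 8.01, 8.21, 7.92 and 8.13 in the vehicle arrays. At 24 h it stood at 11.69, 11.82, 11.69 and 11.69 with E2, against 7.42, 7.54, 7.53 and 7.78 with vehicle. Every E2 array lay above every vehicle array of its time, and the E2 arrays at 24 h lay above all others. The change was 0.75 ± 0.08 (SE) at 3 h and 4.15 ± 0.08 at 24 h, which is 1.69-fold and 17.8-fold, with limma's Benjamini-Hochberg adjusted p of 1.2e-07 and 1.8e-18. At 24 h this was the increase ranked 2 among 11963 genes. The probe set's specificity against the near-identical paralog S100A7A was not tested.

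S100A8, a subunit of calprotectin, was at 9.76, 9.76, 9.66 and 9.60 with E2 at 3 h, against 8.94, 9.10, 8.94 and 8.999 with vehicle. At 24 h it was at 11.40, 11.47, 11.44 and 11.43 with E2, against 9.50, 9.68, 9.69 and 9.66 with vehicle. The groups did not overlap at either time. The vehicle arrays at 24 h overlapped the E2 arrays at 3 h and all lay above the 0 h arrays, which were at 8.90, 8.95, 8.93 and 8.85. The change was 0.70 ± 0.05 at 3 h and 1.80 ± 0.05 at 24 h, or 1.62-fold and 3.49-fold, with limma adjusted p of 3.9e-10 and 2.6e-16. At 24 h it ranked 23 among all increases. A second S100A8 probe set, below the dim level in every group but E2 at 24 h, rose by 0.45 ± 0.11 and 1.46 ± 0.11, both called when every probe set was tested.

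S100A9, the other subunit of calprotectin, was below the dim level in all 20 arrays. Its values ran from 4.46 to 4.62 with E2 and from 4.27 to 4.47 with vehicle at 24 h, and from 4.27 to 4.61 with E2 and from 4.45 to 4.51 with vehicle at 3 h. The groups overlapped at both times. The change was -0.01 ± 0.06 at 3 h and 0.10 ± 0.06 at 24 h, with 95% intervals from -0.14 to 0.12 and from -0.03 to 0.23, and limma adjusted p of 0.93 and 0.21. How far a change is compressed at this signal level was not tested.

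Both proteins of calprotectin are abundant in myeloid cells, so markers of such cells are set beside them. Of 7 measured markers of myeloid and other immune cells, 1 rose and 0 fell with E2 at each time. It was LYZ, the lysozyme gene, by 0.29 ± 0.09 at 3 h and by 0.88 ± 0.09 at 24 h, to a 24 h mean of 5.62 with E2 against 4.74 with vehicle, both below the dim level. PTPRC, the pan-leukocyte gene CD45, averaged 3.90 and CD14 averaged 5.59 over all arrays, both dim, and neither was called with E2. The log2 summed level of the 7 ran from 8.67 to 8.90 with E2 and from 8.59 to 8.67 with vehicle at 24 h, and its part in the S100A8 result was not tested. In bulk RNA of this kind, fewer or more cells of a type and less or more RNA per cell cannot be told apart. Markers of cornified epithelium, where S100A7 is abundant, rose in 4 of 8 cases at 24 h. The largest of these rises was 0.31 ± 0.10 for IVL, the involucrin gene, which is dim. Over all genes 13.5% were called higher with E2 at 3 h and 21.5% at 24 h. The log2 summed level of the 8 ran from 11.20 to 11.26 with E2 and from 11.15 to 11.21 with vehicle, and its part in the S100A7 result was not tested.

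**Figure D1:**
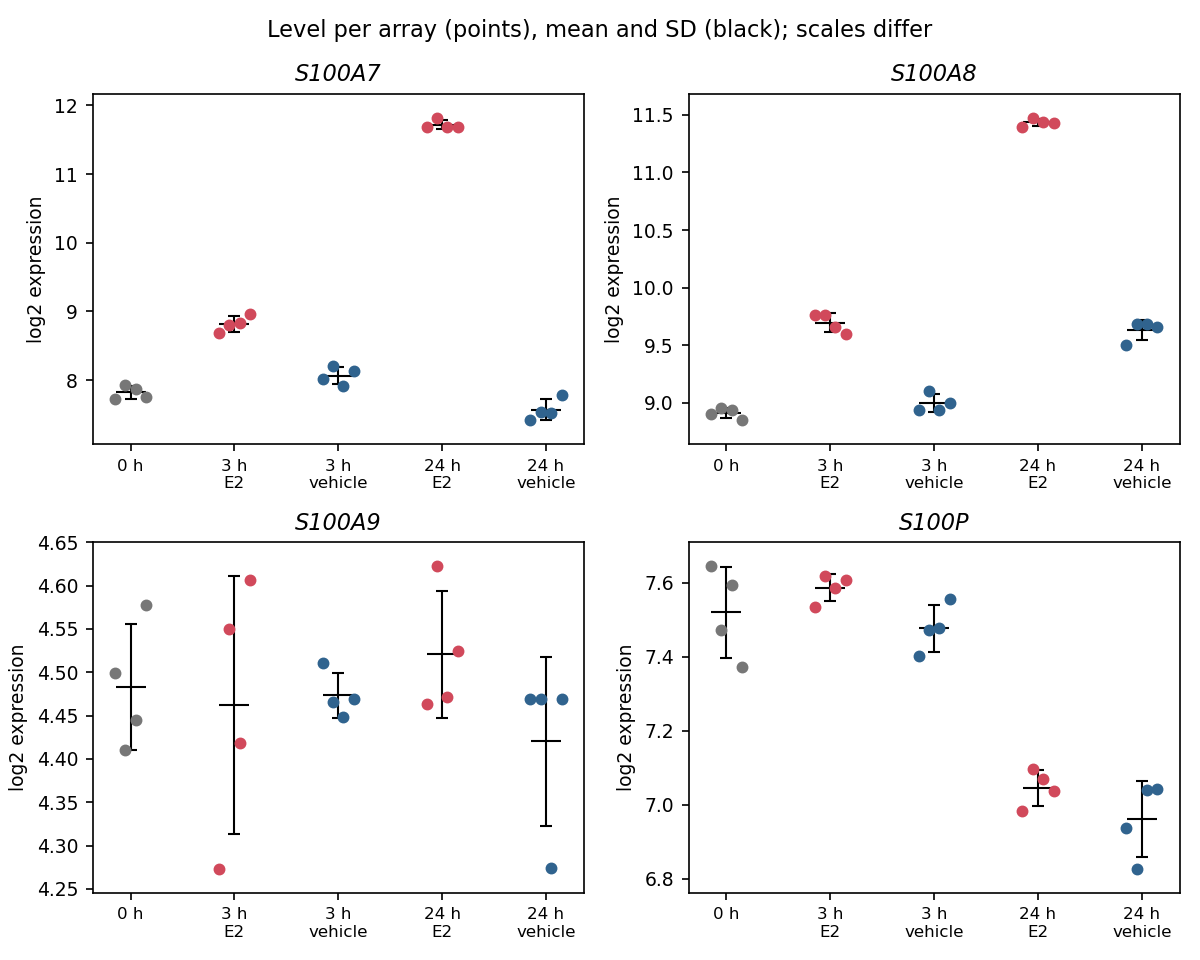
Log2 expression (vertical axes, scales differ) of S100A7, S100A8, S100A9 and S100P on each of 20 arrays, by group along the horizontal axis, with the mean and SD of each group in black. E2 arrays of S100A7 and S100A8 lie above vehicle at both times, S100A9 stays between 4.27 and 4.62, and S100P is lower in both groups at 24 h.

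S100A7 and S100A8 were also the genes of the 10 whose E2 effect differed between the times. The difference, 24 h minus 3 h, was 3.40 ± 0.11 for S100A7 and 1.10 ± 0.07 for S100A8, with limma adjusted p of 1.4e-14 and 1.6e-10. These were 2 of 10 genes, both positive, where 34.3% of all genes were called in this test and 16.5% were called positive. Vehicle itself moved in this interval. Against 0 h, vehicle changed S100A7 by 0.25 ± 0.08 at 3 h (limma adjusted p = 0.027) and by -0.25 ± 0.08 at 24 h (limma adjusted p = 0.035), with arrays overlapping at both times. The call at 3 h was lost without 0 h array A or D or vehicle array B or D, and that at 24 h without 0 h array B or C or vehicle array A, B or C, or when no other groups entered the fit (limma adjusted p = 0.062). S100A8 was higher in vehicle at 24 h than at 0 h by 0.72 ± 0.05 (limma adjusted p = 9.4e-09), rank 10 among all increases of that comparison. For the 8 other genes the difference was not called, and the intervals of those differences reached no further than -0.29 and 0.30. Without E2 array D at 3 h, S100A4 was called as well, at -0.20 (limma adjusted p = 0.01).

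S100A8 was not among the genes whose pattern was most like that of S100A7. With the 5 group means as points, S100A8 had a Pearson r of 0.933 with S100A7, which placed it 69 among 617 genes whose group means spanned at least 1 on the log2 scale. The 5 genes most like S100A7 by this measure were SERPINA3, a protease inhibitor of the acute phase (r = 0.998), MCM10, a replication factor (0.994), GINS4, a subunit of the replicative helicase (0.994), OLFML3 (0.993) and PBX3, a homeobox transcription factor (0.991). Their changes at 24 h ran from 1.08 ± 0.04 for SERPINA3 to 2.35 ± 0.08 for OLFML3. These values describe 5 points and all arrays are shared.

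S100P, first found in placenta and known as a binder of ezrin and IQGAP1, did not pass in either E2 comparison. It was lower at 24 h than at 0 h in both vehicle and E2 arrays. At 24 h it stood at 6.98, 7.10, 7.07 and 7.04 with E2, against 6.94, 6.83, 7.04 and 7.04 with vehicle. At 3 h it stood at 7.54, 7.62, 7.59 and 7.61 with E2, against 7.403, 7.47, 7.48 and 7.56 with vehicle, and the 0 h arrays were at 7.65, 7.47, 7.60 and 7.37. E2 and vehicle overlapped at each time, and every array at 24 h was below every array of the earlier times. The E2 changes were 0.11 ± 0.06 and 0.08 ± 0.06, with 95% intervals from -0.01 to 0.23 and from -0.03 to 0.20 and limma adjusted p of 0.16 and 0.24. Vehicle at 24 h was lower than 0 h by 0.56 ± 0.06, or 1.47-fold (limma adjusted p = 1.4e-06), which ranked 12 among all decreases. EZR, the ezrin gene, rose with E2 by 0.44 ± 0.05 at 3 h and by 0.39 ± 0.05 at 24 h. Its change in vehicle at 24 h against 0 h was -0.27 ± 0.05 (limma adjusted p = 0.0024). The EZR means were 12.50 at 0 h, and 12.24 with vehicle and 12.62 with E2 at 24 h.

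S100A10 and S100A14 were lower with E2 at both times, S100A4 at 24 h and S100A11 at 3 h, by at most 0.26 on the log2 scale. S100A10, which pairs with annexin A2 at the membrane, was at 13.17, 13.16, 13.16 and 13.17 with E2 at 24 h, against 13.26, 13.33, 13.29 and 13.29 with vehicle. At 3 h it was at 13.43, 13.44, 13.40 and 13.40 with E2, against 13.47, 13.53, 13.46 and 13.50 with vehicle. The groups did not overlap, although the distance between them was small. S100A10 fell by 0.13 ± 0.02 at 24 h and by 0.07 ± 0.02 at 3 h, with limma adjusted p of 0.0003 and 0.026. These levels are near the upper end of the scale, where signal may be compressed, and this was not tested.

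S100A14, a membrane-associated epithelial member, was at 11.99, 12.03, 12.01 and 12.04 with E2 at 3 h, against 12.20, 12.22, 12.23 and 12.28 with vehicle. At 24 h it was at 11.76, 11.79, 11.69 and 11.87 with E2, against 11.93, 11.94, 11.86 and 11.98 with vehicle. The groups were apart at 3 h, and at 24 h the highest E2 array passed the lowest vehicle array. S100A14 fell by 0.22 ± 0.03 at 3 h and by 0.15 ± 0.03 at 24 h, with limma adjusted p of 4.4e-05 and 0.0013. Vehicle at 3 h itself stood above 0 h by 0.08 ± 0.03, without overlap but not called (limma adjusted p = 0.10). Against 0 h, E2 at 3 h was lower by 0.13 ± 0.03.

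S100A4, known as metastasin and for binding non-muscle myosin, was at 8.90, 8.81, 8.74 and 8.81 with E2 at 24 h, against 8.998, 9.03, 9.10 and 9.14 with vehicle. All E2 arrays were below all vehicle arrays. It fell by 0.26 ± 0.05 (limma adjusted p = 0.0002). At 3 h the arrays were 8.97, 9.01, 8.98 and 8.78 with E2, against 9.03, 9.05, 9.02 and 9.08 with vehicle, a change of -0.11 ± 0.05 that did not pass (limma adjusted p = 0.099).

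S100A11, a partner of annexin A1, fell by 0.11 ± 0.04 at 3 h (limma adjusted p = 0.034), from arrays that overlapped, and was not called at 24 h (-0.05 ± 0.04). S100A6 (calcyclin) and S100A13, which takes part in the release of FGF1 and IL1A, were not called at either time. Their changes lay between -0.08 and -0.05, and their 95% intervals reached no lower than -0.15. The second S100A13 probe set was also not called, at -0.08 ± 0.06 and 0.07 ± 0.06. Without vehicle array A at 3 h, S100A13 was called lower (-0.11, limma adjusted p = 0.028), and without vehicle array C at 24 h so was S100A6 (-0.09, limma adjusted p = 0.031). With a trended robust variance prior both were called lower at 3 h, with limma adjusted p of 0.042 for S100A6 and 0.033 for S100A13.

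**Figure D2:**
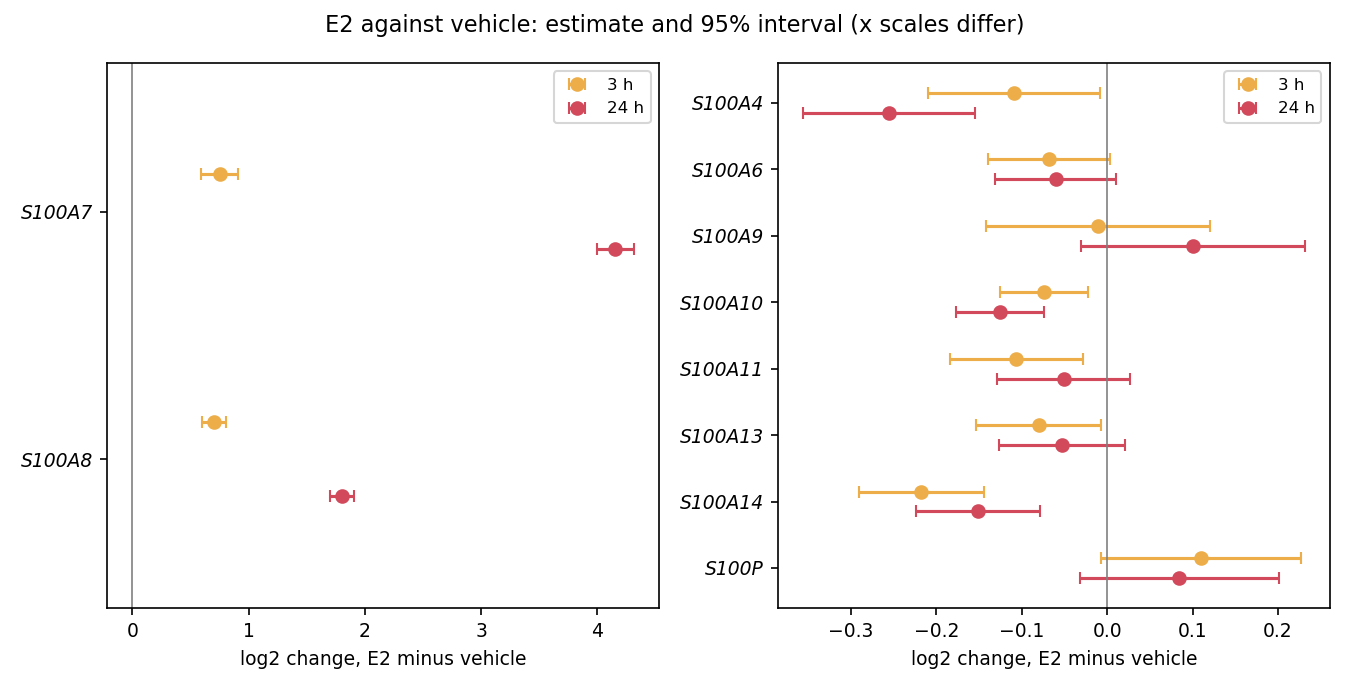
Log2 change with E2 (E2 minus vehicle, horizontal axes, scales differ) for the 10 S100 genes at 3 h and 24 h, as the limma estimate with its 95% interval, from 4 arrays a group. S100A7 reaches 4.15 and S100A8 1.80 at 24 h, while the other 8 genes lie between -0.26 and 0.11.

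In all, 2 of the 10 genes rose and 3 fell at 3 h, where 31.1% of all genes were called, 13.5% higher and 17.6% lower. At 24 h 2 rose and 3 fell, where 45.7% of all genes were called, 21.5% higher and 24.2% lower, so a count of 5 of 10 is near the background there. The median change over the 10 was -0.07 at 3 h and -0.05 at 24 h, against 0.0002 and 0.02 over all genes. E2 and vehicle arrays did not overlap for 5 of the 10 genes at 3 h and for 4 at 24 h, where 30.6% and 41.4% of all genes did not. S100A7 and S100A8 were called higher at both times, as were 7.07% of all genes, and S100A14 and S100A10 were called lower at both, as were 10.2%. The remaining calls were of S100A11 at 3 h and of S100A4 at 24 h. The calls of S100A10 and S100A11 at 3 h did not hold under several settings. Both were lost without vehicle array B or E2 array C or D at 3 h, S100A10 also without vehicle array D, and S100A11 also without vehicle array A or E2 array A. With each array centred on its median, only S100A7, S100A8 and S100A14 were called at 3 h (limma adjusted p = 0.11 for S100A10 and 0.06 for S100A11). Against 0 h in place of vehicle, E2 at 3 h gave neither call (limma adjusted p = 0.064 for S100A10 and 0.46 for S100A11).

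**Figure D3:**
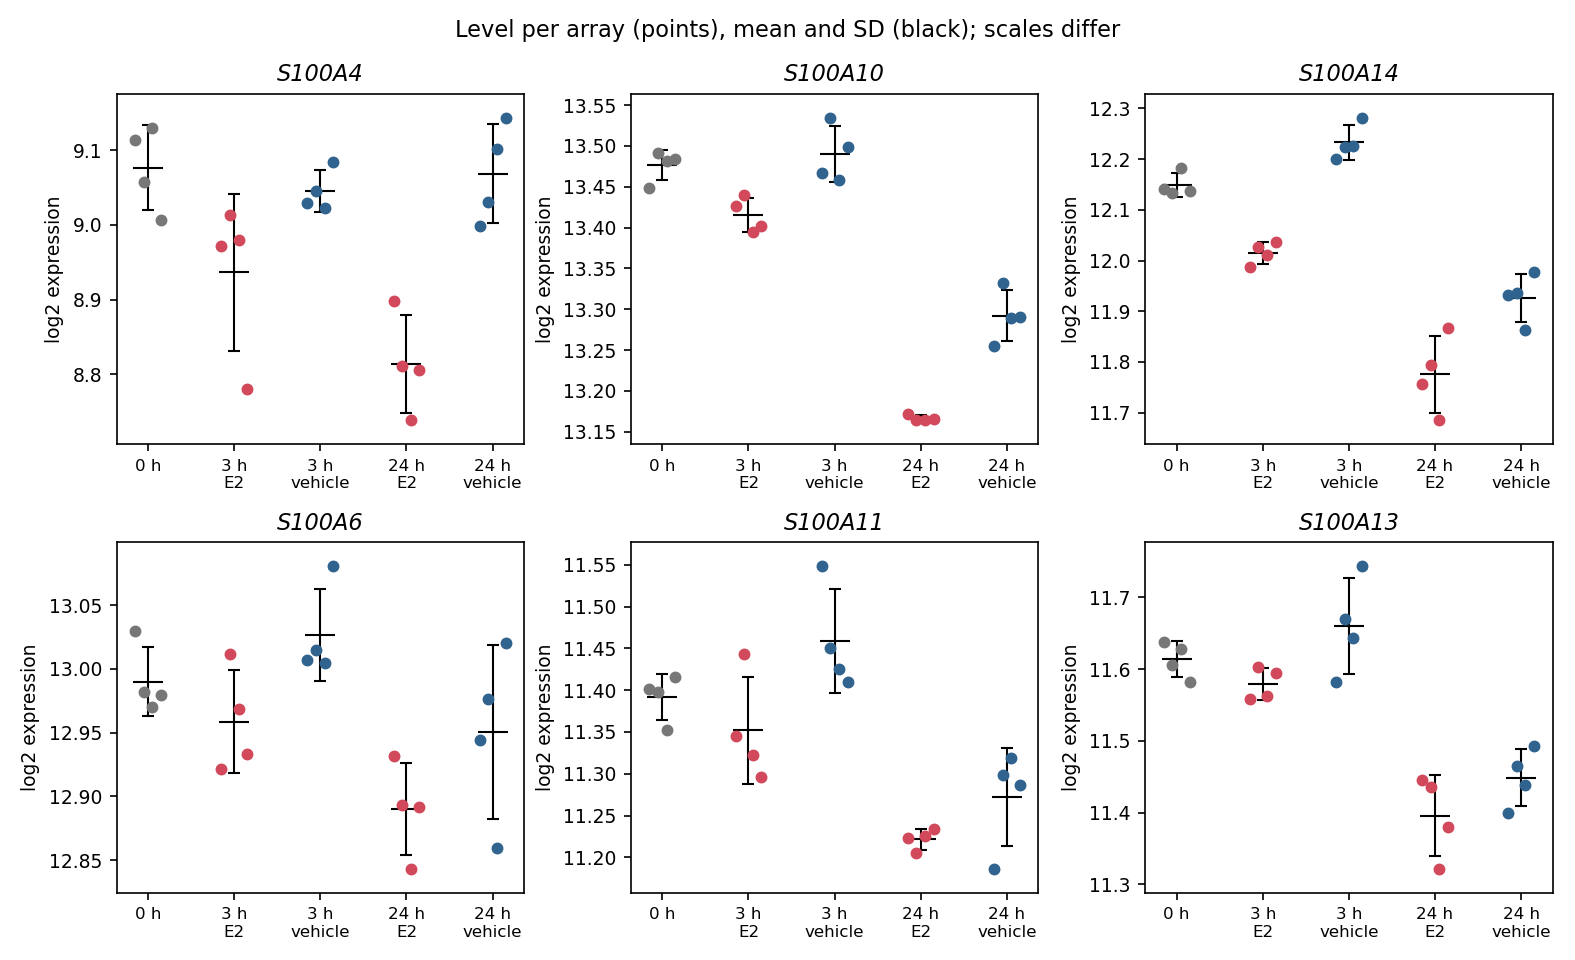
Log2 expression (vertical axes, scales differ) of S100A4, S100A10, S100A14, S100A6, S100A11 and S100A13 on each of 20 arrays by group, with the mean and SD of each group in black. S100A10 and S100A14 are lower with E2 than with vehicle at both times and lower at 24 h than at 0 h, over a span of 0.32 and 0.46 in the group means.

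The vehicle arrays at 24 h differed from the 0 h arrays in 7 of the 10 genes, 1 higher and 6 lower, where 11.9% of all genes were called, 7.55% higher and 4.37% lower. Over all genes this was 903 higher and 523 lower, while centring arrays on their medians gave 806 higher and 712 lower, and the 10 genes then still gave 1 higher and 6 lower. S100A8 was the higher one. Besides S100P and S100A7, the genes that fell were S100A14 by 0.22 ± 0.03, S100A10 by 0.18 ± 0.02, S100A13 by 0.16 ± 0.03 and S100A11 by 0.12 ± 0.04, with limma adjusted p from 4.1e-05 for S100A10 to 0.042 for S100A11. The second S100A13 probe set did not show this fall, at -0.02 ± 0.06 (limma adjusted p = 0.88 with every probe set tested). On the lead probe sets the vehicle arrays of S100A14, S100A10, S100A13 and S100A11 all lay below their 0 h arrays. With S100P and S100A8, groups did not overlap for 6 of the 10 genes, where 19.8% of all genes did not overlap. The count was 7 as well with cyclic loess across arrays, which was chosen after seeing the data, 6 with the probe set of largest SD, and 5 at a threshold of 0.01 and with only the groups of the comparison. The S100A11 call was lost in that last fit (limma adjusted p = 0.065) and without any 1 of 8 arrays, the 0 h arrays A, B and D, the vehicle arrays A, B and D at 24 h and the E2 arrays B and C at 24 h, with limma adjusted p up to 0.13. In vehicle at 3 h against 0 h, 1 of 10 genes was called, S100A7, where 20% of all genes were called and 9.95% were called higher. Set against 0 h, E2 at 24 h gave S100A7 3.90 ± 0.08 and S100A8 2.52 ± 0.05, where 41.6% of all genes were called. All of the 10 genes but S100A9 were called in this comparison, S100A7 and S100A8 higher and the others lower. S100A14 stood at -0.37 ± 0.03 and S100A10 at -0.31 ± 0.02. S100A6 stood at -0.10 ± 0.03, S100A11 at -0.17 ± 0.04 and S100A13 at -0.22 ± 0.03. The vehicle and E2 comparisons with 0 h share the 0 h arrays.

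Of 27 measured partners and receptors of S100 proteins, 3 rose and 5 fell with E2 at 3 h, and 5 rose and 9 fell at 24 h. These shares are near the 31.1% and 45.7% of all genes called and are not a result about the partners. Their median change was -0.01 and -0.04. The receptors for released S100 proteins were not called: AGER changed by -0.05 ± 0.07 and TLR4, which is dim, by 0.05 ± 0.11 at 24 h. ANXA2, the partner of S100A10, fell by 0.12 ± 0.03 at 3 h and by 0.16 ± 0.03 at 24 h. ANXA1, the partner of S100A11, fell by 0.64 ± 0.10 at 3 h, with means of 6.19 with E2 and 6.83 with vehicle, against 6.16 at 0 h. Vehicle at 3 h had itself risen over 0 h by 0.67 ± 0.10. At 24 h ANXA1 was not called (-0.03 ± 0.10) and its E2 mean was dim. ANXA11, MYH9 and AHNAK, the next of the list by p, were named after their values were seen. ANXA11, an annexin bound by S100A6, fell by 0.34 ± 0.03 at 24 h and was not called at 3 h (-0.0026 ± 0.03). MYH9, the non-muscle myosin heavy chain bound by S100A4, fell by 0.31 ± 0.04 at 3 h and by 0.41 ± 0.04 at 24 h. Its means at 3 h were 9.70 with E2 and 10.00 with vehicle, against 9.67 at 0 h, and vehicle had risen over 0 h by 0.33 ± 0.04. AHNAK, a scaffold that binds the S100A10 and annexin A2 complex, fell by 0.29 ± 0.04 at 3 h and by 0.41 ± 0.04 at 24 h. Its means at 24 h were 11.61 with E2 and 12.03 with vehicle, against 11.83 at 0 h. Vehicle at 24 h had risen over 0 h by 0.19 ± 0.04.

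The partners with the smallest p were SYT1, ERBB4, KCNK3 and PLAT. SYT1, the calcium sensor of vesicle release that joins S100A13 in releasing FGF1, rose by 1.18 ± 0.03 at 24 h and was not called at 3 h (0.04 ± 0.03). PLAT, the tissue plasminogen activator gene, whose product binds S100A10, rose by 0.54 ± 0.10 at 3 h and by 1.48 ± 0.10 at 24 h, with its mean below the dim level in every group. ERBB4, a receptor tyrosine kinase whose product S100A4 binds, fell by 0.76 ± 0.04 at 24 h. The ERBB4 means were 10.65 with E2 and 11.41 with vehicle, against 11.20 at 0 h. Vehicle at 24 h had risen over 0 h by 0.20 ± 0.04. KCNK3, a potassium channel listed as a partner of S100A10, rose by 0.31 ± 0.06 at 3 h. It fell by 1.09 ± 0.06 at 24 h, to a dim mean of 5.56 with E2. Limma adjusted p at 24 h ran from 3.5e-17 for SYT1 to 1.5e-10 for PLAT.

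**Figure D4:**
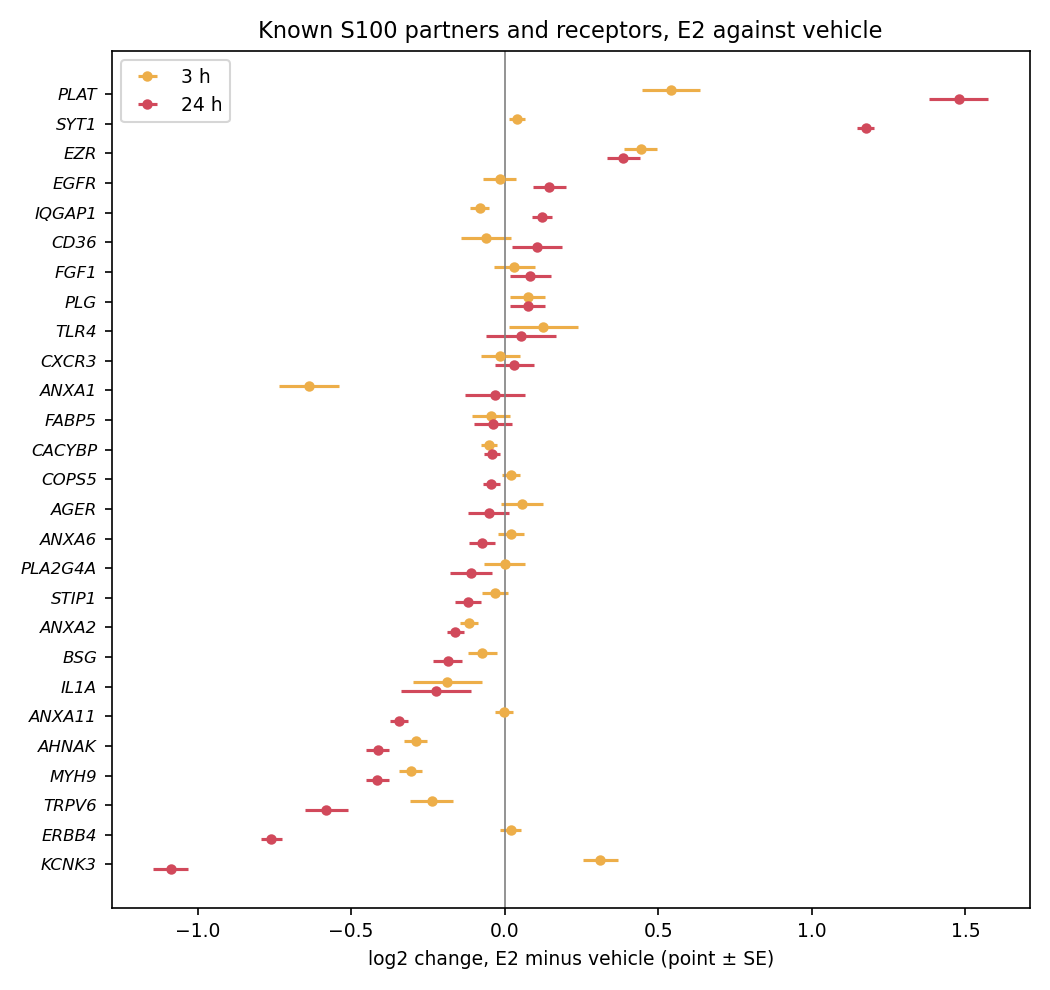
Log2 change with E2 (E2 minus vehicle, horizontal axis) of 27 known S100 partners and receptors at 3 h and 24 h, as the limma estimate and its SE from 4 arrays a group, sorted by the change at 24 h. PLAT and SYT1 are the highest at 1.48 and 1.18 and KCNK3 the lowest at -1.09, while AGER and TLR4 lie near 0.

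No other gene measured in this stretch of chromosome 1 changed as much as S100A7 or S100A8 at 24 h. Measured between lower coordinates, S100A8 lies 67.7 kb from S100A7, S100A9 99.9 kb and S100A6 76.9 kb. The lower coordinate is the end of S100A7, S100A8 and S100A6, which lie on the minus strand, and the start of S100A9. Of the 21 other measured genes between S100A10 and S100A13, 0 rose and 1 fell at 3 h, CRCT1 by 0.34 ± 0.09, which is dim. At 24 h 5 rose and 1 fell, with a median of 0.02. The named ones were IVL, by 0.31 ± 0.10, SPRR3, a cornified envelope gene, by 0.30 ± 0.10, and S100A1, a muscle and brain member of the family, by -0.10 ± 0.03. S100A1 lies within the span of S100A13. Of these 21 genes 12 had a mean below the dim level. Over all genes 31.1% were called at 3 h, 13.5% higher and 17.6% lower. At 24 h 45.7% were called, 21.5% higher and 24.2% lower, and 5 of 21 higher is near that share. Among the 7 other S100 family genes on the array, 0 were called at 3 h, and at 24 h S100B rose by 0.27 ± 0.09 on a dim probe set beside the fall of S100A1.

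**Figure D5:**
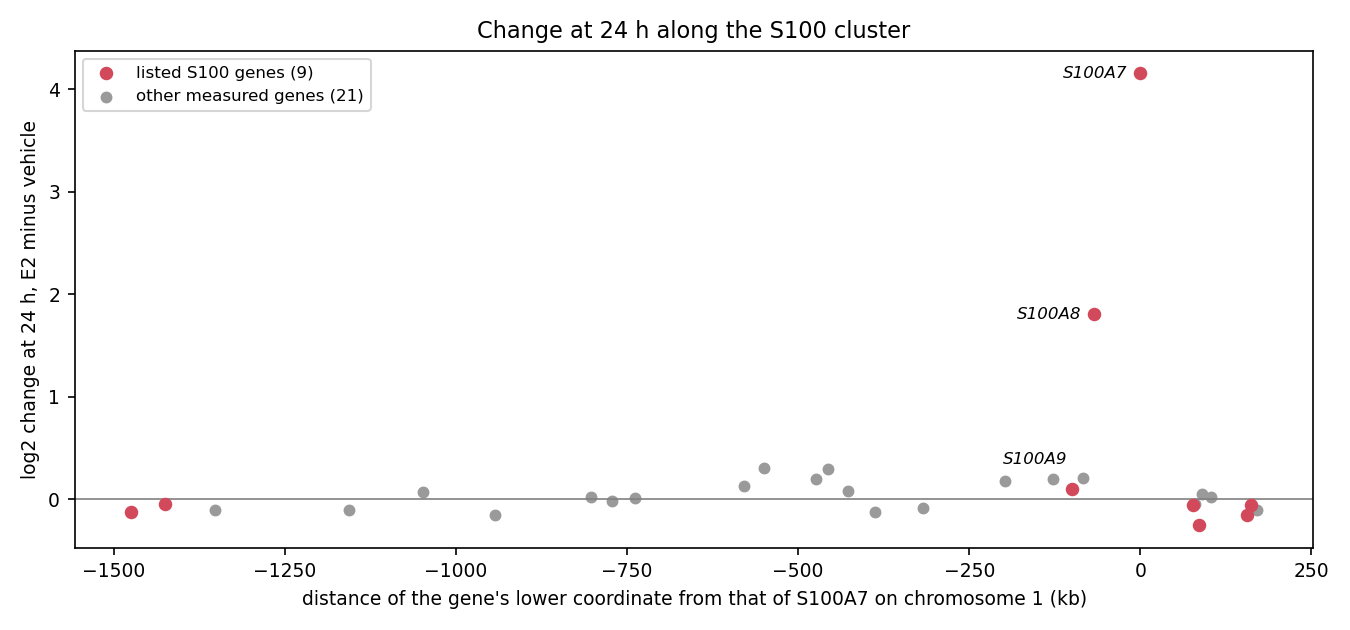
Log2 change with E2 at 24 h (E2 minus vehicle, vertical axis) of 9 listed S100 genes and 21 other measured genes, by distance in kb from S100A7 along chromosome 1. S100A7 at 4.15 and S100A8 at 1.80 stand apart, and the other 28 genes lie between -0.26 and 0.31.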

How the data were processed

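Transcript levels were measured on 20 Affymetrix human expression arrays. Per the submitters' processing notes the authors summarised probes to log2 values by RMA (affy), with versions not given in the sources used here. Array medians over the genes used ran from 7.89 to 7.97. The number of arrays limits precision.

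Of 22277 probe sets, 62 controls were left out. The platform annotation gave 1 symbol for 19064, several for 1043 and none for 2108, which stay unnamed. The highest-mean probe set stood for each of 11963 genes. No dim gene was removed.

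All 20 arrays entered 1 limma 3.58.1 fit in R 4.3.3 (lmFit, eBayes, two-sided, group means, no block), tested on simulated data. P-values were adjusted by Benjamini-Hochberg across the 11963 genes and called under 0.05. Errors after ± are SEs of that fit, and a change is E2 minus vehicle, or either of them minus 0 h.

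The 10 genes and the lists were chosen with earlier results of these data known. Named are the 10 genes, up to 4 genes of each other list by smallest p over the E2 comparisons, and ANXA2, ANXA1, AGER, TLR4 and EZR; ANXA11, MYH9 and AHNAK were added after their values were seen. Marker genes are named as examples, and LOR was read as LORICRIN. Promoter windows are RefSeq's. Alternatives covered normalization, arrays in the fit, dim genes, probe sets, the variance prior, array weights, thresholds, a replicate block and single arrays.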

Additional observations from a re-analysis of the deposited data

Results flagged for a closer look

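The E2 effect differed between 24 h and 3 h for S100A7 by 3.40 and for S100A8 by 1.10 on the log2 scale, by the test of the difference itself. In 5 of 60 groups of 4 arrays examined, 1 array stood apart from the other 3 by Dixon's criterion, which chance meets in about 1 of 20 groups. S100A7 with E2 at 24 h had array B at 11.82, the others being at 11.69. S100A8 with vehicle at 24 h had array A at 9.50, the others lying from 9.66 to 9.69, and its second probe set with E2 at 3 h had array C at 5.81, the others lying from 5.94 to 5.96. S100A6 with vehicle at 3 h had array D at 13.08, the others lying from 13.004 to 13.015. S100A9 with vehicle at 24 h had array C at 4.27, while the other 3 arrays held the identical value 4.469131. Vehicle array D at 3 h held that value too. With 3 identical values any differing array meets the criterion. The 5 stand-out values lay on different arrays.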

How the results depend on the processing

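At 24 h the count of S100 genes called with E2 was 5 under each of the 10 planned or added settings tried and 5 to 6 with single arrays left out. S100A7 ran from 4.10 to 4.22 and S100A8 from 1.76 to 1.82 with single arrays left out, and both were called in each case. At 3 h the count of 5 became 3 with each array centred on its median, at a threshold of 0.01 and with only the groups of the comparison, 7 with a trended robust prior and 4 with array weights, and it ran from 3 to 5 with single arrays left out. In vehicle at 3 h against 0 h the count of 1 became 2 with that prior and with array weights, S100A14 being added as higher. That count became 0 at a threshold of 0.01 and ran from 0 to 1 with single arrays left out. With the replicate block the counts were 4 at 3 h, 5 at 24 h and 6 for vehicle at 24 h against 0 h, S100A11 being lost at 3 h (limma adjusted p = 0.051) and in that vehicle comparison (limma adjusted p = 0.062). Whether the letters A to D pair the arrays was not settled, since weak correlations cannot exclude a shared origin. The deviations of same-letter arrays correlated from -0.25 to 0.37, over 0.1 in 6 of 40 pairs. In 8 of 40 pairs the array correlated best with its own letter. The highest were 0.37 for array D and 0.25 for array A, both between E2 at 24 h and E2 at 3 h. Signs turned for values that were not called: S100A9 with E2 at 3 h (0.0024 with median centring, -0.059 to 0.052 with single arrays left out), S100A9 in vehicle at 3 h (0.028 with cyclic loess, -0.034 to 0.022) and the time difference of S100A6 (-0.0024 with array weights, -0.022 to 0.031). With single arrays left out they also turned for the time differences of S100A13 (-0.00040 to 0.053) and S100P (-0.070 to 0.0015), for S100A10 in vehicle at 3 h (-0.0016 to 0.024) and for S100A4 in vehicle at 24 h (-0.033 to 0.015). S100P with E2 at 24 h stood at -0.47 against 0 h in place of vehicle, and was called there (limma adjusted p = 7.4e-07). Vehicle at 24 h was itself lower than 0 h by 0.56. The cause of these sign changes was not tested.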
